A study of Mus musculus with 4 samples.

Results

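Transcription factors that define group 2 innate lymphoid cells (ILC2) were followed here through single ILC2 sorted from mouse pancreas. The members were Gata3, Rora, Id2, Bcl11b, Gfi1, Ets1, Nfil3, Tox, Ahr and Hes1, taken from a fixed list by gene symbol, and 10 of the 10 listed genes had a row among the 11352 named genes of plate 1. The genotype was labelled C57BL6J, and the sorted cells bore the photoconvertible reporter KIKR, whose green form becomes red on illumination with violet light. Each of 4 plates of 384 wells received photoconverted (red) and non-photoconverted (green) ILC2, with wells left empty. The series is about fasting, yet feeding state, age and animal of origin are given for no cell. On plate 1 the cells of both colours share tissue, genotype label and library.

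Innate lymphoid cells have no rearranged antigen receptor, and their fate is held by a small circuit of transcription factors. GATA3, a zinc-finger factor, is the central regulator of ILC2 and of their type 2 cytokines, and RORA, a nuclear receptor, is needed for their development. ID2 has a helix-loop-helix domain but no DNA-binding region, and it holds E proteins away from their sites. BCL11B and GFI1 are zinc-finger factors that keep ILC2 from taking on genes of other innate lymphoid cells, ETS1 sustains their development and expansion, and NFIL3 and TOX act early, in the progenitors of these cells. AHR is a ligand-activated factor best known in ILC3 and in gut ILC2, and HES1 is a repressor switched on by Notch.

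Row names could be used on plate 1 alone. The rows named as spike-ins (synthetic RNAs added to each well) held 43.2% of its reads and mitochondrial rows 5.63%, whereas mitochondrial rows made up 0.0531%, 0.0110% and 0.0204% of reads on plates 2, 3 and 4. The spike-in rows of those plates took up 0.113%, 44.1% and 21.7%, so that the spike-in share alone does not set plate 1 apart. Plate 1 held 12 photoconverted and 151 non-photoconverted cells and 221 empty wells, of which 8 photoconverted and 98 non-photoconverted cells had at least 500 genes and under 25% mitochondrial reads. The kept cells held 56539 to 1677643 gene reads in photoconverted cells (median 540662) and 17825 to 1274117 in non-photoconverted cells (median 187690), with median spike-in reads of 59283.5 and 67405. The median number of genes with at least 1 read was 2748.5 and 1637. Because of this gap, photoconverted cells were also set against depth-matched cells, the 5 non-photoconverted cells nearest in number of genes to each, which were 29 distinct cells. Photoconverted cell 4, with 5129 genes and 1677643 reads, had no close match, since its 5 nearest cells had 3240 to 4480 genes. This cell held 65.6% of the Rora, 53% of the Hes1, 39.5% of the Id2 and 36.3% of the Gata3 reads of photoconverted cells. Plate 1 is 1 library, so the colours have no replicate, no test was possible and no p-value is given. Detection of a factor meant 16 or more reads in the cell, since low read numbers also occurred in empty wells. Intervals are exact binomial intervals at 95% and cover counting error of cells only, because PCR copies of a molecule are counted as separate reads.

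Gata3 and Id2 were detected in nearly all ILC2 of either colour once depth was taken into account. Gata3 (chromosome 2, 9857078 to 9890034, mm10) was found in 8 of 8 photoconverted cells, in 95% of depth-matched cells, in 82 of 98 non-photoconverted cells and in 7 of 221 empty wells. Its level spanned 513 to 3133 CPM (counts per 1000000 gene reads) with a median of 2292 in photoconverted cells, and 0 to 8674 with a median of 1732 in non-photoconverted cells. The photoconverted values lay inside the range of the non-photoconverted ones. Id2 (chromosome 12, 25093799 to 25097140) was likewise found in 8 of 8 photoconverted cells, in 95% of depth-matched cells, in 84 of 98 non-photoconverted cells (85.7%, interval 77.2 to 92%) and in 1 of 221 empty wells. Its level spanned 293 to 1437 CPM (median 720) in photoconverted and 0 to 9684 CPM (median 841) in non-photoconverted cells, and here too the ranges overlapped. Among all 11352 genes, Id2 stood 82nd and Gata3 90th by share of non-photoconverted cells, and their intervals overlapped. In the order of the 10 factors by this share (Id2, Gata3, Ets1, Bcl11b, Hes1, Gfi1, Ahr, Tox, Rora, Nfil3), the intervals of neighbours failed to overlap at the steps between Gata3 and Ets1 and between Hes1 and Gfi1. All these intervals come from the same 98 cells of 1 library, so whether they overlap is no test of a difference between genes. Gata3 and Id2 were found together in 8 of 8 photoconverted cells, in 92.5% of depth-matched cells and in 74 of 98 non-photoconverted cells. The 6 non-photoconverted cells with neither had 502 to 1005 genes, against a median of 1711.5 in the cells with at least 1 of them.

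Promoters of 6 members were matched by symbol in RefSeq (GRCm38.p6). Those of Gata3 and Id2, the most often detected members, are shown beside that of Nfil3, the least often detected. The 3 windows are compared for a site of E proteins, the factors that ID2 holds away from DNA. Each runs 5′ to 3′ on the gene's strand, at chr2:9878551-9878850 (minus), chr12:25096043-25096342 (minus) and chr13:52980990-52981289 (minus), with matches to the E-box CANNTG in capitals and, in Nfil3, also the match to the ROR element AGGTCA on the opposite strand.
Gata3: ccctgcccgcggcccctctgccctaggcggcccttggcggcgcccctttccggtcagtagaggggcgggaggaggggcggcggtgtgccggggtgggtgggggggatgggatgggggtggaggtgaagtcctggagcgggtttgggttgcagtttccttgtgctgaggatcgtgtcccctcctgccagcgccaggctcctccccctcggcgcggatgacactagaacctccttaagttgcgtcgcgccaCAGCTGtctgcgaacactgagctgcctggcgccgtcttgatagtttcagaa
Id2: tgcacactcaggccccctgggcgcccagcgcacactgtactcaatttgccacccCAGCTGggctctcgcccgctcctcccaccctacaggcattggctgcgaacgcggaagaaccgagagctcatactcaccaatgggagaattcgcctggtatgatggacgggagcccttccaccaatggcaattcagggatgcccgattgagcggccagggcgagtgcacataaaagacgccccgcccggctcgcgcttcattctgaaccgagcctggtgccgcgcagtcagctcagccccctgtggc
Nfil3: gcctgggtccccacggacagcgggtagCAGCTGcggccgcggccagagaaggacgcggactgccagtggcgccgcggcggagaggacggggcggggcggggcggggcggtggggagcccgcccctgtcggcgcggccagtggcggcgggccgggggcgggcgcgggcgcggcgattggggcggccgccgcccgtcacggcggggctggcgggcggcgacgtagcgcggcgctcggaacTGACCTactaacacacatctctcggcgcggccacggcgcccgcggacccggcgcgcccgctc
The Gata3 and Id2 windows each held 1 E-box, with the letters CAGCTG in both, and Nfil3 held 1 E-box and 1 ROR element. E-boxes, searched on both strands, were present in 4 of the 6 matched members (Gata3, Id2, Gfi1 and Nfil3) and in 72.3% of all 32851 promoters of the same length, and AGGTCA in 1 of 6 and in 16.3%. Of the other letters searched, also on both strands, GATAA was in 0 of 6 members and 25.4% of all promoters, CCGGAA (ETS) in 2 of 6 and 14.9%, GCGTG (AHR) in 1 of 6 and 32.4%, CACGNG (HES, which shares CACGTG with the E-box) in 1 of 6 and 27.5%, TGGGAA (RBPJ) in 1 of 6 and 25.6%, and TTANNTAA (NFIL3) in 0 of 6 and 6%. The 7 promoters of these 6 members had a median GC content of 60.3%, against 52.7% for all promoters. A match describes letters in the window and does not show binding.

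**Figure D1:**
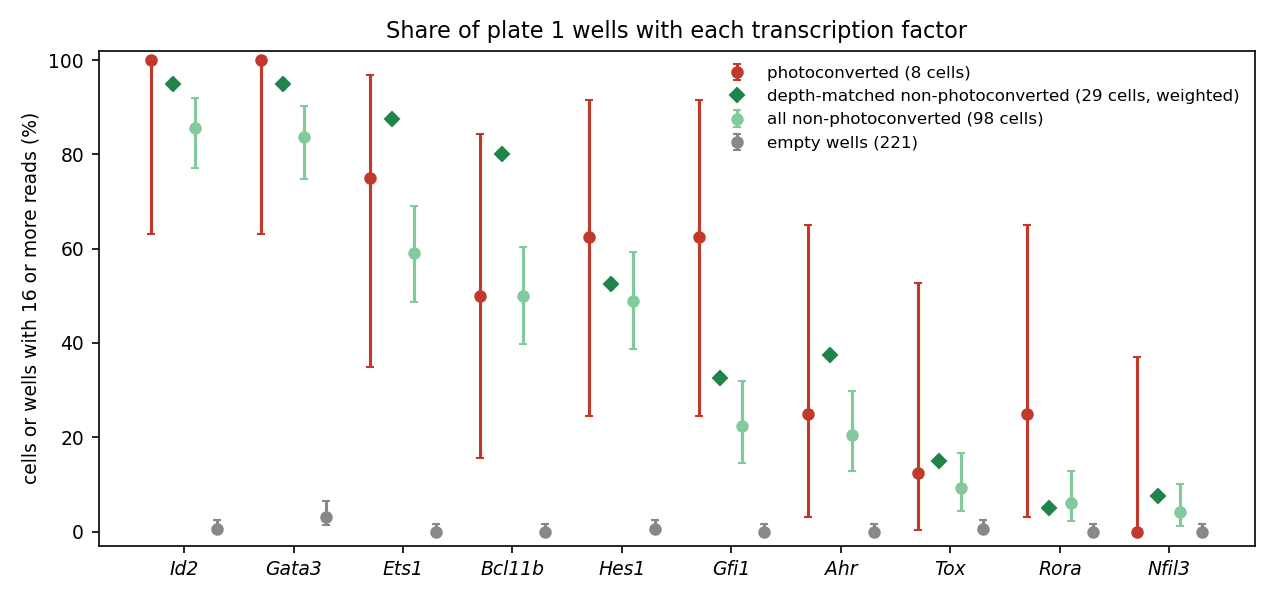
Share of plate 1 wells with 16 or more reads of each factor (y axis, percent) in photoconverted cells, depth-matched and all non-photoconverted cells and empty wells, with factors ordered by share in non-photoconverted cells. Bars are exact 95% binomial intervals, absent for the weighted depth-matched shares. Id2 and Gata3 stand at 100% of photoconverted cells, and empty wells stay at or under 3.17%.

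Ets1 and Bcl11b followed in order of detection. Ets1 (chromosome 9, 32636221 to 32757820) reached 16 reads in 6 of 8 photoconverted cells (34.9 to 96.8%), 87.5% of depth-matched cells and 58 of 98 non-photoconverted cells (48.8 to 69%). Its level was 12.8 to 683 CPM (median 380) in photoconverted and 0 to 3800 CPM (median 238) in non-photoconverted cells, and mean levels were 369 CPM in photoconverted, 419 in depth-matched and 422 in all non-photoconverted cells. The 2 photoconverted cells without Ets1 had 5 and 2 reads of it. The difference in share, -12.5 percentage points, was 15.8 points against all non-photoconverted cells and 5 points at 1 read or more. Without photoconverted cell 2 it was 0, and the interval in photoconverted cells includes the depth-matched share.

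Bcl11b (chromosome 12, 107910403 to 108003602) reached 16 reads in 4 of 8 photoconverted cells (15.7 to 84.3%), 80% of depth-matched cells and 49 of 98 non-photoconverted cells (39.7 to 60.3%). Its reads in the 8 photoconverted cells were 30, 0, 295, 246, 3, 0, 262 and 0, with levels of 0 to 518 CPM (median 30.7), against 0 to 3982 CPM (median 87.3) in non-photoconverted cells. The mean was 122 CPM in photoconverted, 502 in depth-matched and 370 in all non-photoconverted cells, a log2 ratio of -1.96 against depth-matched cells (after adding 10 CPM). The 4 photoconverted cells with Bcl11b had at least 2952 genes, and 3 of the 4 without it had 2189 to 2545, so depth also differed within the colour. The difference in share, -30 percentage points, was 0 against all non-photoconverted cells and -12.5 when cells were matched on gene reads in place of genes, and its interval in photoconverted cells includes the depth-matched share.

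Gfi1 lay on the other side. It encodes a repressor (chromosome 5, 107716657 to 107726036), found in 5 of 8 photoconverted cells (24.5 to 91.5%), 32.5% of depth-matched cells and 22 of 98 non-photoconverted cells (14.6 to 32%), with 0 of 221 empty wells. The reads of the 8 photoconverted cells were 27, 0, 652, 38, 65, 0, 156 and 0, with levels of 0 to 1144 CPM (median 33.2), against 0 to 1700 CPM (median 0) in non-photoconverted cells. A single photoconverted cell, with 652 reads, held 69.5% of them. The mean was 204 CPM in photoconverted and 143 in depth-matched cells, and without that cell the photoconverted mean was 70.1 CPM and the log2 ratio -0.97 in place of 0.49, so the direction of the level rests on it. The share differed by 30 points at 16 reads and by 7.5 points at 1 read and 5 points at 64 reads, and its interval in photoconverted cells includes the depth-matched share.

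By a fixed rule of size, a difference in share of 25 percentage points or more from depth-matched cells, 1 of the 10 members (Gfi1) was past the rule upward, where 9.74% of 5833 genes detected in at least 5 kept cells were, and 1 of 10 (Bcl11b) downward, where 3.89% were. Nfil3 was the member that did not pass this filter, with 4 cells. Over the 10 members, 5 had a larger share in photoconverted cells (Gata3, Rora, Id2, Gfi1 and Hes1) and 5 a smaller one. Of all 5833 genes, 52.9% had a larger share. The members' median difference was 1.25 points (5 points over the 9 that passed the filter), against 2.5 points over all genes. Mean levels differed 2-fold or more upward in 1 member (Rora), where 13.4% of genes did, and downward in 3 (Bcl11b, Ahr and Nfil3, the last listed at 0 in photoconverted cells), where 30.3% did. The members' median log2 ratio of level was -0.26, against -0.32 over all genes. Counts of members past either rule were therefore close to those of genes in general.

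Hes1 had either few reads or many in most cells. It (chromosome 16, 30064384 to 30067796) reached the limit of 16 reads in 5 of 8 photoconverted cells (24.5 to 91.5%), 52.5% of depth-matched cells and 48 of 98 non-photoconverted cells (38.7 to 59.3%) and in 1 of 221 empty wells. Of the 8 photoconverted cells, 3 had 1 to 15 reads, 1 had 16 to 63 and 4 had 64 or more, up to 4916. Of the 98 non-photoconverted cells, 21 had no read, 29 had 1 to 15, 5 had 16 to 63 and 43 had 64 or more, up to 3620. Few cells of either colour thus lay between low and high values, and 28 of 221 empty wells also had 1 to 15 reads. Levels spanned 2.56 to 4768 CPM (median 944) in photoconverted and 0 to 10141 CPM (median 103) in non-photoconverted cells, with means of 1381, 1077 and 1418 CPM in photoconverted, depth-matched and all non-photoconverted cells. Gfi1 also had few cells between, with 12 at 1 to 15 reads, 3 at 16 to 63 and 19 at 64 or more, whereas Gata3 had 1 to 15 reads in 11, 16 to 63 in 10 and 64 or more in 72 of the 98 non-photoconverted cells. The log2 ratio of the mean Hes1 level against depth-matched cells was 0.36, and -0.39 without the photoconverted cell of highest CPM.

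**Figure D2:**
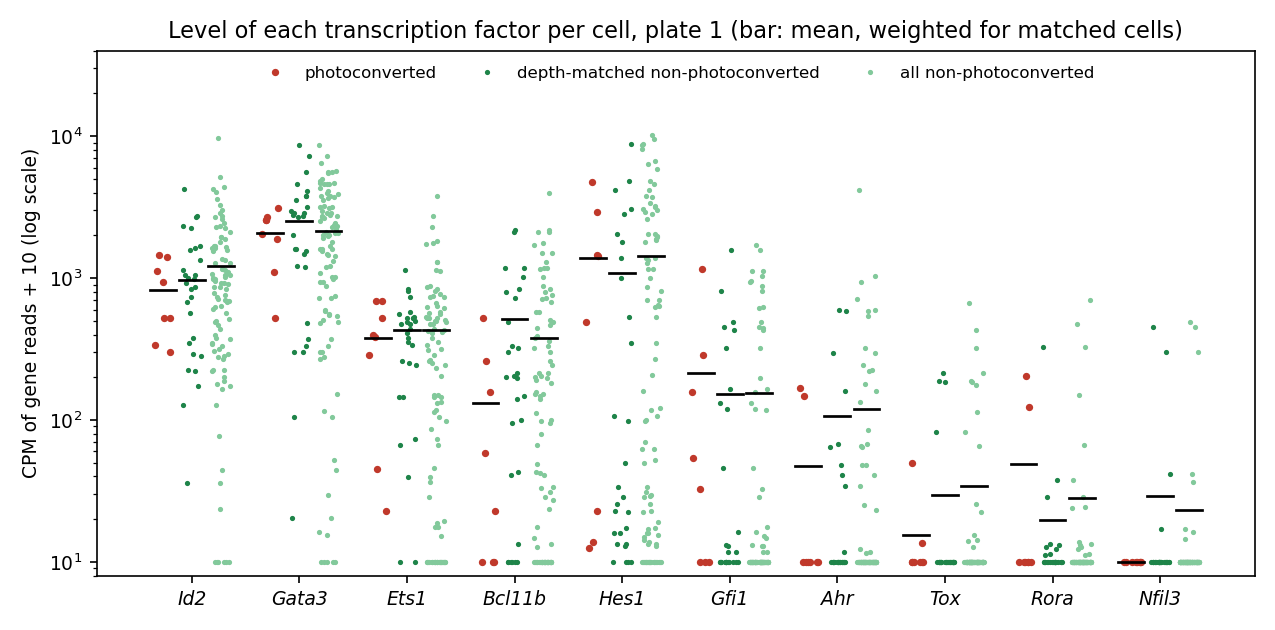
Level of each factor per cell (y axis, CPM + 10 on a log scale) in photoconverted, depth-matched and all non-photoconverted cells of plate 1, with 1 point per cell and bars at the means (weighted for depth-matched cells). Gata3 spans 513 to 3133 CPM in photoconverted cells, and Hes1 falls into a low and a high set of cells in both colours.

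Rora, Ahr, Tox and Nfil3 were detected in few cells of plate 1. Ahr (chromosome 12, 35497974 to 35535038) was found in 2 of 8 photoconverted cells (3.19 to 65.1%), 37.5% of depth-matched cells and 20 of 98 non-photoconverted cells (12.9 to 29.7%). Mean Ahr levels were 37.1 CPM in photoconverted and 97.1 CPM in depth-matched cells, and the highest non-photoconverted cell reached 4197 CPM. Tox (chromosome 4, 6686353 to 6991557) was found in 1 of 8 photoconverted cells, 15% of depth-matched cells and 9 of 98 non-photoconverted cells (4.29 to 16.7%), with 1 of 221 empty wells. Rora (chromosome 9, 68653786 to 69388246) was found in 2 of 8 photoconverted cells, with 191 and 100 reads, in 5% of depth-matched cells and in 6 of 98 non-photoconverted cells, and no read of it was found in empty wells. The other 6 photoconverted cells had 0 reads of Rora, and the difference in share, 20 points, was 8.57 points without 1 of the 2 cells and 11.4 without the other; at 1 read or more it was -12.5 points. Nfil3 (chromosome 13, 52967209 to 52981073) had 0 reads in the 8 photoconverted cells, with an exact interval of 0 to 36.9% and, by the floor of 3 counts, a share as high as 37.5% allowed, and was found in 7.5% of depth-matched cells and 4 of 98 non-photoconverted cells (1.12 to 10.1%), where the highest cell had 213 reads. With the interval of each photoconverted share this wide, a difference for these 4 factors was not detectable at this number of cells. The assay reads the 3′ ends of polyadenylated RNA, and levels are not compared between genes here.

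Drawing every cell down to 1000 gene reads made the number of reads equal, though not the number of molecules behind them, and the share given is the expected share of draws with at least 1 read. Gata3 then stood at 81.5% in photoconverted, 73.6% in depth-matched and 67.4% in all non-photoconverted cells, and Id2 at 51.7%, 50.7% and 53%. Hes1 stood at 48.3%, 34.2% and 37.9%, Ets1 at 28.9%, 31.9% and 26.1%, and Gfi1 at 14.1%, 10.4% and 9.66%. Bcl11b stood at 10.3% in photoconverted, 29.8% in depth-matched and 21.6% in all non-photoconverted cells, the widest gap downward among the 10. Rora, Ahr, Tox and Nfil3 stood at 7.79% or less in each of these sets of cells. Set against spike-in reads instead, Gata3 gave 22 reads per 1000 spike-in reads in photoconverted cells, 20.3 in depth-matched and 9.87 in all non-photoconverted cells, while Bcl11b gave 1.36, 4.62 and 1.72.

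Detection also varied with depth within non-photoconverted cells. Ranked by number of genes, 33 cells had 502 to 1194 genes, 33 had 1220 to 2026 and 32 had 2067 to 4480. Gata3 was detected in 60.6%, 93.9% and 96.9% of these groups, and Id2 in 63.6%, 93.9% and 100%. Ets1 stood at 15.2%, 69.7% and 93.8%, and Bcl11b at 18.2%, 54.5% and 78.1%. Hes1 did not climb past the middle group, with 30.3%, 60.6% and 56.2%, and Gfi1 varied less, with 15.2%, 24.2% and 28.1%. Mean levels also differed with depth, at 1113, 2544 and 2758 CPM for Gata3, 144, 505.5 and 463.5 CPM for Bcl11b and 175, 152 and 110.5 CPM for Gfi1 in the same order.

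**Figure D3:**
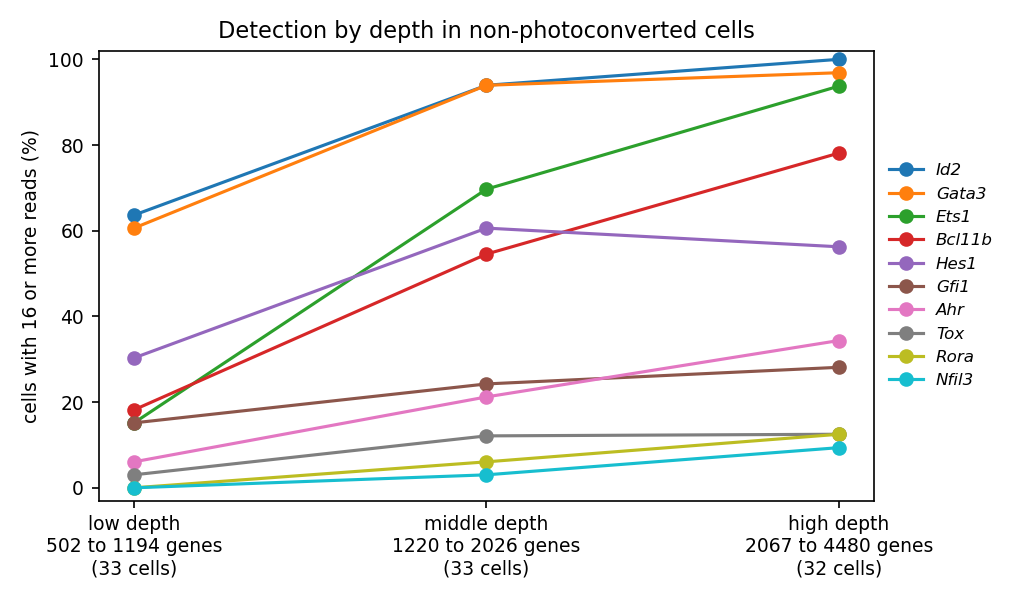
Share of non-photoconverted cells with 16 or more reads of each factor (y axis, percent) in cells of low, middle and high depth (x axis, ranked by number of genes). Ets1 goes through 15.2%, 69.7% and 93.8%, whereas Hes1 stands at 60.6% and 56.2% in the middle and high groups.

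The number of members detected together in a cell was close between photoconverted cells and non-photoconverted cells matched on number of genes, a match that left median gene reads of 540662 and 483926. Photoconverted cells held 5.13 ± 1.96 of the 10 factors (mean ± SD over 8 cells), depth-matched cells 5.08 ± 1.77 (weighted, 29 cells) and all non-photoconverted cells 3.90 ± 1.86 (98 cells), while empty wells held 0.0452. The difference in means was 0.05 factors with this match and 0.325 when cells were matched on gene reads. The photoconverted cells held 7, 2, 6, 7, 4, 5, 7 and 3 factors, and the cell with 2 had Gata3 and Id2. None of the factors was detected in 0 photoconverted cells, in 4 non-photoconverted cells and in 212 of 221 empty wells. The 4 most often detected factors, Id2, Gata3, Ets1 and Bcl11b, occurred together in 4 of 8 photoconverted cells (15.7 to 84.3%), 75% of depth-matched cells and 36 of 98 non-photoconverted cells (27.2 to 47.1%). No cell held all 10, and the highest number was 7 in photoconverted and 8 in non-photoconverted cells. In non-photoconverted cells the mean was larger at greater depth, at 2.12, 4.39 and 5.22 factors in the low, middle and high groups.

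**Figure D4:**
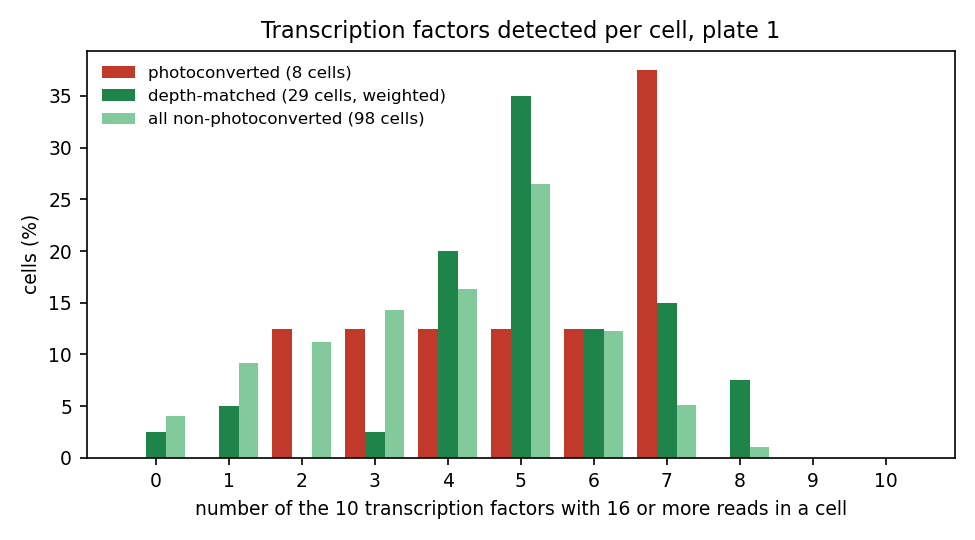
Percentage of cells (y axis) by the number of the 10 factors with 16 or more reads (x axis) in photoconverted, depth-matched and all non-photoconverted cells of plate 1. Of the 8 photoconverted cells, 3 held 7 factors, and the 98 non-photoconverted cells range over 0 to 8.

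Summed over pairs, factors met in single cells about as often as their shares predict. For each pair the number of non-photoconverted cells with both was set beside the number expected from the shares of each within the 3 depth groups. Over the 45 pairs, 722 joint detections stood against 699 expected, a ratio of 1.03, and over 747253 pairs of the 1223 genes detected in at least 20 of these cells the ratio was also 1.03. Without depth groups these ratios were 1.15 and 1.23. Over the 21 pairs of the 7 factors that also reached 20 cells, the ratio within depth groups was 1.04. Gata3 and Id2 were detected in at least 93.9% of cells of the middle and high groups. Ratios of their pairs could move little from 1 there, and these pairs enter the summed ratio. Among the 21 pairs of the 7 factors detected in at least 20 cells, ratios ran over 0.89 to 1.37, inside the 0.79 to 1.31 that held the central 90% of all gene pairs except for Ahr with Hes1 and Ahr with Gfi1. Ahr and Hes1 were found together in 15 cells, against 11 expected, and Ahr and Gfi1 in 7, against 5.09. Bcl11b and Gfi1 met in 11 cells, against 12.3 expected, and in 4 of 8 photoconverted cells, and every one of the 49 non-photoconverted cells with Bcl11b also had Id2, against 45.7 expected. Rora was found with Gata3 in 6 of its 6 cells, against 5.75 expected. It was found with Tox in 0 and with Nfil3 in 0, where 0.74 and 0.44 were expected.

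**Figure D5:**
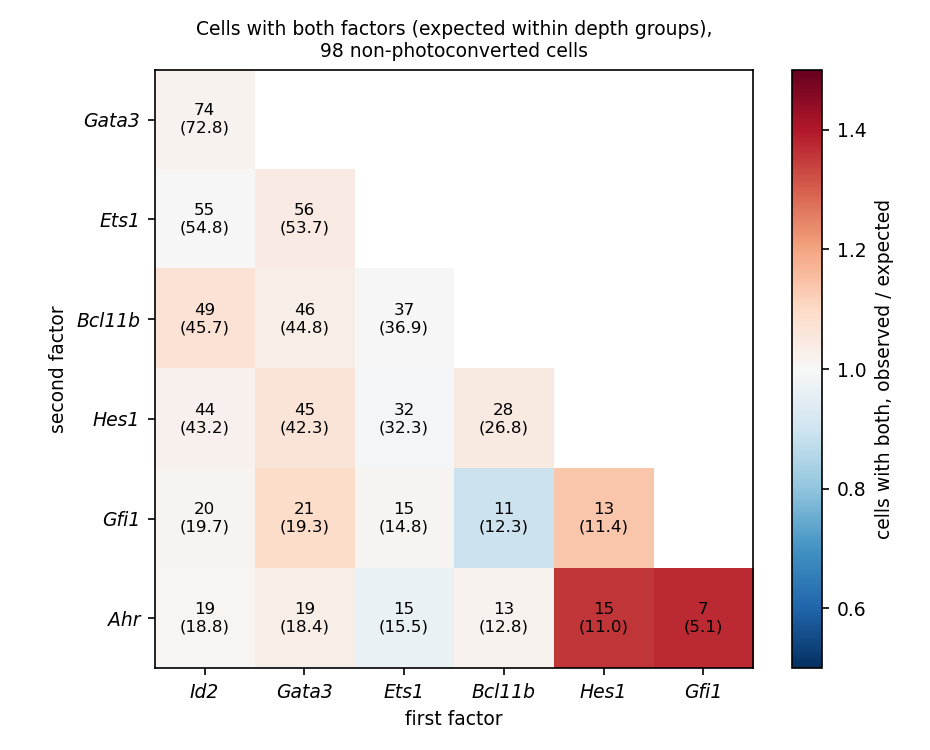
Number of non-photoconverted cells with both factors of a pair and, in brackets, the number expected within depth groups, for the 7 factors detected in at least 20 of 98 cells. Colour gives observed over expected, which lies between 0.89 (Bcl11b with Gfi1) and 1.37 (Gfi1 with Ahr).

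The genes whose levels most resembled each factor were sought by Spearman correlation over the 98 non-photoconverted cells after ranks were regressed on the number of genes, among 1123 candidate genes. The values are weak, share the same library and cells, and are given as a description. Gata3 lay nearest to Tnfaip3 and Nfkbia, inhibitors of NF-kB signalling (rho 0.39 and 0.38). Id2 lay nearest to Ptgir, the prostacyclin receptor, and Cd200r1, an inhibitory receptor (0.29 and 0.28). Bcl11b was followed by Stk10, a kinase, and Ankrd12 (0.34 and 0.31), and Gfi1 by Dtnbp1 and Tax1bp1 (0.38 and 0.36). Ets1 was followed by Cnot6l, a deadenylase subunit, and Ldb1, an adaptor of LIM-domain factors (0.39 and 0.30), Ahr by Gpi1, a glycolytic enzyme, and Was, an actin regulator (0.36 and 0.31), and Hes1 by Eif4h and Stag2, a cohesin subunit (0.33 and 0.31). Between the factors themselves the highest values were 0.21 for Gata3 with Hes1 and 0.19 for Ahr with Hes1, and Gata3 with Id2 gave 0.09.

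Genes that work with these factors were also counted by share against depth-matched cells. Of 18 measured ILC2 genes known as bound or driven by GATA3 or RORA, 11 had a larger share in photoconverted cells, 5 a smaller one and 2 an equal one. Of these genes, 5 were past 25 points upward and 2 downward, with a median difference of 11.3 points. Of all 5833 genes, 52.9% had a larger share, 9.74% were past 25 points upward and 3.89% downward, with a median of 2.5 points. Il1rl1, the interleukin-33 receptor, was detected in 8 of 8 photoconverted and 87.5% of depth-matched cells, and Klrg1, a receptor of mature ILC2, in 8 of 8 and 87.5%. Areg, which encodes the growth factor amphiregulin, was detected in 7 of 8 photoconverted and 72.5% of depth-matched cells. The 2 genes past 25 points downward, chosen after their values were seen, were Il17rb, a subunit of the interleukin-25 receptor, in 1 of 8 and 57.5%, and Il7r, the interleukin-7 receptor, in 4 of 8 and 87.5%. The 5 upward, chosen in the same way, were the cytokine genes Il5 (7 of 8 and 47.5%), Csf2 (6 of 8 and 45%) and Il4 (3 of 8 and 12.5%), Arg1, arginase (7 of 8 and 60%), and Kit (5 of 8 and 32.5%), a growth factor receptor that is also a mast cell marker. Among 31 measured other transcription factors of lymphoid cells, 16 were higher and 13 lower, with 2 past 25 points in each direction and a median of 2.5 points. Lmo4, a LIM-domain factor, was detected in 7 of 8 and 97.5%, Nr4a1, an orphan nuclear receptor induced by activation, in 8 of 8 and 92.5%, and Nfkb1 in 6 of 8 and 80%.

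Of 6 listed E proteins and Id family genes, 3 had a row, all of them E proteins, the targets of ID2, with Tcf12 in 2 of 8 photoconverted and 37.5% of depth-matched cells, Tcf3 in 0 of 8 and 17.5%, and Tcf4 in 0 of 8 and 7.5%. In the Notch pathway, which acts on Hes1, 4 of 9 measured genes were higher and 5 lower. Of all 5833 genes detected in at least 5 kept cells, 3085 were higher, 2369 lower and 379 equal, and 7 of the 9 passed that filter. Rbpj, the DNA-binding partner of Notch, was detected in 6 of 8 photoconverted and 62.5% of depth-matched cells, Notch2 in 3 of 8 and 47.5%, and Adam10, a protease that cleaves Notch, in 3 of 8 and 30%. Of 12 cofactors of GATA3, GFI1 and BCL11B, 10 of which passed the filter, 3 were higher, 8 lower and 1 equal. Their median was -10 points, against 2.5 over all genes, with 1 past 25 points in each direction. Over all genes, 9.74% were past it upward and 3.89% downward. Ncor1, a corepressor, was detected in 5 of 8 and 85%, Chd4, a remodelling ATPase, in 4 of 8 and 70%, and Ldb1 in 4 of 8 and 62.5%. Arnt, the partner of AHR, was detected in 1 of 8 and 20%, and Tiparp, an AHR target, in 2 of 8 and 22.5%. Of 10 circadian genes linked to RORA and NFIL3, 6 of which passed the filter, 1 was higher, 5 lower and 4 equal. Nr1d1 and Nr1d2, repressors that bind ROR elements, were detected in 0 of 8 photoconverted cells each and in 20% of depth-matched cells each. Per1 was detected in 3 of 8 and 27.5%.

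Markers of the sorted cell type and of others were set beside these values. At least 3 of 12 ILC2 markers were detected in 8 of 8 photoconverted and 77 of 98 non-photoconverted cells, and their summed level was 3937 to 17033 CPM in photoconverted and 67.6 to 24588 CPM in non-photoconverted cells. The 12 markers include the members Gata3 and Rora, so this count and level are not independent of the values above. No cell held 3 markers of T cells or of NK cells or ILC1. Of 4 measured T cell markers, Cd3g was detected in 2 of 8 photoconverted and 9 of 98 non-photoconverted cells, with summed levels of 0 to 327.5 and 0 to 2125.5 CPM. For ILC3, Ltb was detected in 4 of 8 photoconverted and 85% of depth-matched cells. For mast cells or basophils, Kit alone was measured, the same gene as counted above among the ILC2 genes, in 5 of 8 and 32.5% (0 to 857 and 0 to 1589.5 CPM), and of the 2 measured myeloid markers Cst3 was detected in 6 of 8 and 40% (summed 0 to 937 and 0 to 2552 CPM). Cd79b, of B cells, was detected in 0 photoconverted and 5 non-photoconverted cells, Nkg7, of NK cells, in 0 and 4, Pecam1, of endothelium, in 0 and 9, and Pcsk1, of endocrine cells, in 1 and 1. The 4 measured acinar markers were detected in 0 of 106 cells. Of the 12 ILC2 markers, 1 (Il5) was past 25 points upward and 2 (Il17rb and Il7r) downward, where 9.74% and 3.89% of all 5833 genes were. Il5, Il17rb and Il7r are the same genes as counted above among the ILC2 genes bound or driven by GATA3 or RORA, and not a separate result. Ltb, Kit, Cst3 and these 3 ILC2 markers each differed by 25 points or more between the same cells in which Gfi1 and Bcl11b did, and their part in those values was not tested.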

How the data were processed

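Single ILC2 from mouse pancreas were sorted into 384-well plates and made into CEL-seq2-based SORT-seq libraries, per the labels' protocols. The authors deposited unnormalised read counts for every row in every well, alongside each well's sort colour and red fluorescence intensity; STAR, STARsolo and edgeR with mm10 are named in the submitters' processing notes, with no role or version. The values are reads and not molecular identifiers. The deposited fluorescence intensity was at most 1691 in non-photoconverted and at least 2202 in photoconverted cells of plate 1. Each plate is 1 sample, and values come from plate 1. No model could be fitted with 1 library, so shares, means and exact intervals describe its cells.

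CPM were computed over gene reads without spike-ins. Depth-matched values weight the 5 nearest cells per photoconverted cell, which carry the weight of 22.9 equal cells. No doublet caller was run on sorted single cells. The members and lists were chosen with earlier results of these data known. All members were described, and of other lists the 3 genes of highest mean CPM were named, with the 2 nearest genes per factor detected in at least 20 non-photoconverted cells; Ltb, Kit, Cst3 and Cd3g are among them, and some listed genes are not reported here. Alternatives were other detection limits, matches, filters and scales, and leaving out photoconverted cells. Coordinates are from GENCODE M21. The measures were tested on simulated data. Python 3.11.15, NumPy 2.4.6, pandas 2.3.3 and SciPy 1.17.1 were used.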

Additional observations from a re-analysis of the deposited data

How the results depend on the processing

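The count of members with a larger share in photoconverted cells, 5 of 10, was 8 against all non-photoconverted cells, 3 with the 3 nearest cells, 2 with at least 1000 genes per cell, and 3 without the 2 photoconverted cells of lowest red fluorescence; it was 2 to 5 when each photoconverted cell was left out in turn. The count past 25 points upward, 1, was 0 at a detection limit of 1 or 64 reads, with no cell filter and at 35 points, and 2 at 15 points and without the 2 cells of lowest red fluorescence, with 0 to 2 when leaving out each cell. The count downward, 1, was 0 at 1 read, against all non-photoconverted cells, with the 10 nearest cells, with matching on gene reads and at 35 points, 3 by 2-fold mean CPM, and 0 to 1 when leaving out each cell. Gfi1 was higher in 18 of 18 alternatives by share, Bcl11b lower in 17, Rora higher in 17 and Tox lower in 8. Hes1 was higher in 15, Gata3 in 13 and Id2 in 12, and Ahr was lower in 16 and Ets1 in 15. Nfil3 was lower in 18, but it was detected in 0 photoconverted cells in each of them and so could not be higher. The alternatives share most of their cells, and several only leave out 1 photoconverted cell, so agreement in sign is no independent support. Without photoconverted cell 5, Gfi1 differed by 20 points, and without cells 2, 5 or 6 Bcl11b differed by -20, -22.9 and -22.9. The co-detection ratio of 1.03 stayed within 0.999 to 1.15. Comparing levels with all non-photoconverted cells and leaving out single cells for levels were chosen after seeing the data. No paired analysis was possible because the colours come from 1 plate. The number of photoconverted cells, 8, limits each share.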

Other observations

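Cells that did not pass the filter held few of the factors. Of 4 such photoconverted cells, 1 had Gata3 and 1 had Id2, and of 53 such non-photoconverted cells, 6 had Gata3 (11.3%), 4 had Id2, 3 had Hes1, 2 had Bcl11b and 1 each had Gfi1, Ets1 and Tox, while Rora, Nfil3 and Ahr were detected in 0. Among the 221 empty wells, 8 held 1 of the factors and 1 held 2, and 44 had at least 1 read of Gata3, up to 246 reads. The gene reads of empty wells had a median of 353, and 1 empty well had at least 500 genes.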
